A study of Homo sapiens with 8 samples.

Results

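The baseline transcriptome of HCT-116, a human colorectal carcinoma cell line, was read from its 2 control libraries, siNC 1 and siNC 2, out of 8 RNA-seq libraries in the series. Both were made from HCT-116 cells transfected with siNC, a control siRNA, and no gene was knocked down in them. They were chosen by their labels alone. The study sequenced them as the reference for knockdowns of *HHEX*, of *YAP1* with *WWTR1*, and of the TEAD genes, and those 6 libraries were not compared with siNC here. Each library gives 1 value for each of 20030 genes, in FPKM, a fragment count divided by both transcript length and library size. FPKM is scaled by length, so that the levels of different genes in a library can be set side by side. The labels do not say whether the libraries came from separate cultures, so the difference between them may be technical. In bulk RNA, fewer cells that use a gene and less RNA per cell cannot be told apart. HCT-116 is kept in culture, without the stroma, blood vessels and immune cells of a tumour.

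The colonic epithelium is a sheet of cells renewed from stem cells at the crypt base, which give rise to absorptive enterocytes, mucus-secreting goblet cells and hormone-secreting enteroendocrine cells. Wnt signals keep the crypt base dividing, and gut transcription factors such as CDX2 hold the intestinal identity. Colorectal carcinoma lines usually keep the keratins and junctions of epithelium but differ in how much of the intestinal program they keep. The markers given for the line were detected in both libraries. *KRT8*, the type II keratin of simple epithelia, was at 1591 FPKM in siNC 1 and 1707 FPKM in siNC 2. Its partner *KRT18* was at 900.5 and 917 FPKM. *CDH1*, which encodes E-cadherin, was at 9.16 and 9.52 FPKM, and *CDX2* was at 3.86 and 4.47 FPKM. The label of a colonic epithelial line thus had its 4 markers at 1 FPKM or more in each library, over a wide range of levels.

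The siNC strand from the study's list of siRNAs is shown because both libraries received it. The capitals mark its 2-base overhang.
siNC: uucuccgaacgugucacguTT
Its first 19 bases, on either strand, were found in 0 of 252835 GENCODE transcripts. The longest run shared with any transcript was 14 bases, in 1 gene.

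The values summed to 348610 FPKM in siNC 1 and 345773 FPKM in siNC 2. Read numbers were not given, and depth is therefore unknown. A gene was counted as on when its mean over the libraries was at least 1 FPKM, and 10051 genes (50.2%) were. Another 5301 genes (26.5%) were listed at 0 in both libraries. The remaining 4678 genes lay between these limits. Counts for the gene lists below are to be read beside the 50.2% on and 26.5% at 0 of all genes. At the top, 542 genes (2.71%) at 100 FPKM or more held 60.1% of the summed FPKM in siNC 1 and 59.9% in siNC 2, whereas the 5614 genes from 1 to under 10 FPKM held 6.99% and 7.05%. Of 62 housekeeping genes that were checked, 0 were listed at 0. All 62 were on by their mean and 61 in both libraries, the exception being *U2AF1*, which was under 1 FPKM in siNC 2 only. A listed 0 does not show that a gene was silent, because the smallest value these libraries could show is not known. As an example of that limit, 1066 genes were at 0 in 1 library only, opposite a value of up to 1.13 FPKM in the other.

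The libraries agreed closely. Over the 10051 genes that were on, Pearson's r was 0.997 and Spearman's rho 0.996 on log2(FPKM + 1), both across genes, which are not independent replicates. The median log2 difference between siNC 2 and siNC 1 was -0.00026. The spread narrowed with level from 1 to under 300 FPKM. In genes of 1 to under 3 FPKM, the absolute log2 difference had a median of 0.0907 and a 95th percentile of 0.313, and in genes of 30 to under 100 FPKM these were 0.0596 and 0.179. The median was 0.0506 from 100 to under 300 FPKM and 0.0569 at 300 FPKM and over. These percentiles served below as the spread of a level between the libraries. No test was run on single genes, since 2 libraries give a single difference for each, and an exact permutation test between the values of 2 genes, 2 against 2, cannot go below p = 0.33. In the text, 2 genes are said to be apart where the gap between them was larger than the 95th percentile in both libraries. That percentile describes the same gene in 2 libraries. A bias of a gene that recurs in both, such as from its length or sequence, is not in it. Genes called apart thus had values whose order recurred, which may differ from the order of their mRNA amounts.

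**Figure D1:**
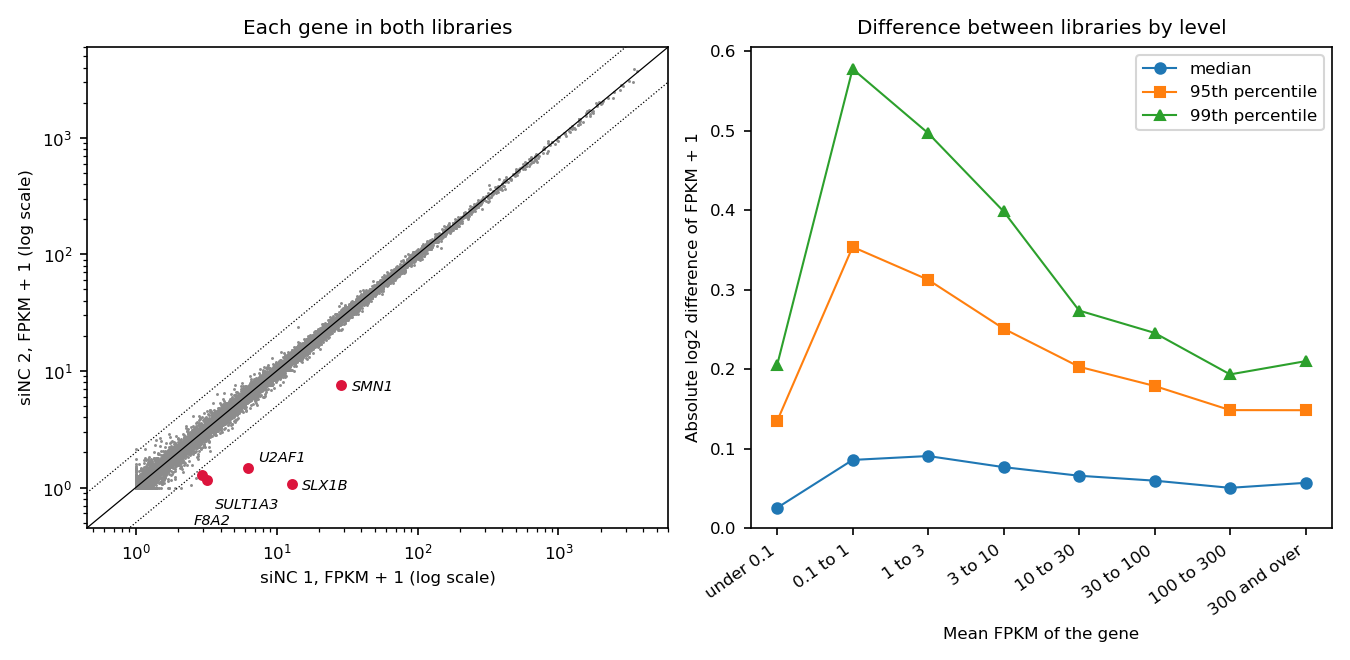
Left, each gene with a value above 0 in at least 1 library, as FPKM + 1 in siNC 1 and siNC 2 on log axes, with the line of equality and dotted lines at 2-fold. The 5 named genes (red) are the on genes outside those lines. Right, the median, 95th and 99th percentile of the absolute log2 difference between the libraries for genes in 8 classes of mean FPKM, which narrows from 0.313 at 1 to 3 FPKM to 0.148 at 300 FPKM and over (95th percentile).

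On this scale, 5 of the 10051 genes, 0.0497%, differed by more than 2-fold, and 17 genes, 0.169%, by more than 1.5-fold. With a pseudocount of 0.1 in place of 1 the first count was 13, and with none it was 16. *SLX1B*, a structure-specific endonuclease subunit, was at 11.8 FPKM in siNC 1 and 0.0761 in siNC 2. *U2AF1*, a splicing factor that reads the 3′ splice site, was at 5.24 and 0.459 FPKM. *SMN1*, the gene of the survival motor neuron protein, was at 27.8 and 6.60 FPKM. *SULT1A3*, a sulfotransferase, was at 2.18 and 0.169 FPKM, and *F8A2* was at 1.93 and 0.29 FPKM. All of these 5 were lower in siNC 2, and all 5 share most of their sequence with another gene. Of the 31-base words of their canonical transcripts, between 95.7% (*SMN1*) and 100% (*SLX1B*, *F8A2*) also occur in another gene, against 4.71% of on genes that share at least 50% of their words. The way reads were divided among such copies is uncertain. Summed over its copies, the *F8A1*, *F8A2* and *F8A3* group was at 16.5 and 15.9 FPKM, which did not differ by 2-fold. The sum of *SMN1* and *SMN2* was still 33.1 against 11.5 FPKM, and that of *SLX1A* and *SLX1B* was 12.03 against 0.0761 FPKM. For *U2AF1* with *U2AF1L5* it was 6.89 against 1.47 FPKM, and for *SULT1A3* with *SULT1A4* 2.52 against 0.34 FPKM. Summing copies thus brought only the *F8A2* group, 1 of the 5, under 2-fold. Values of these genes in siNC are therefore given for each library and not as a mean. By the sharing of words alone, the division of reads is also uncertain for *RPS7* (76.2%), *LDHB* (71.1%), *RPS18* (70.7%), *RNF43* (70.2%), *KRT18* (66.3%), *MIF* (62.6%), *KRT8* (58.6%), *COX6A1* (52.9%) and *KRT6A* (52.7%). These are described below, some by a mean, and did not differ by 1.5-fold. The next 5 genes by size of difference were *C10orf95*, *CCZ1B*, *KISS1R*, *MAFA* and *ENHO*. *CCZ1B*, which also has a close copy, was at 13.2 and 22.9 FPKM. The other 4 had means between 1.02 and 4.04 FPKM. Of these, *C10orf95* at 0.486 and 1.68 FPKM, *KISS1R* at 0.502 and 1.53 FPKM and *MAFA* at 0.72 and 1.89 FPKM were over 2-fold apart without a pseudocount, and each shares under 1% of its words.

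A small part of the difference ran with base composition. Among the 10005 on genes matched to a transcript, the 2001 with the lowest GC content (30.7% to 40.7%) had a median log2 difference of -0.0291, and the 2001 with the highest (58.9% to 76.0%) one of 0.0361. Among the latter, 63.5% of genes were higher in siNC 2, compared with 38.7% of the former. Spearman's coefficient across genes was 0.228. The cause of this shift was not tested.

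Of the 30 genes with the highest mean, 22 encode proteins of the cytosolic ribosome, the particle that translates mRNA. *RPLP1*, a stalk protein of the large subunit, led with 3602 and 3731 FPKM, and *RPS2*, of the small subunit, followed with 3459 and 3854 FPKM. Their order was not the same in both libraries. *RPL37A* was at 3352 and 2978 FPKM and *RPS18* at 3175 and 3069 FPKM. Together the 79 cytosolic ribosomal protein genes held 24.7% of the summed FPKM in siNC 1 and 24.5% in siNC 2, and all 79 were on. The set was drawn by symbol. It leaves out paralogs such as *RPL3L* and *RPL39L*, which were not on, and *RPL22L1* and *RPS27L*, which were. The lowest of the 79 were *RPL36A* at 11.3 and 12.2 FPKM, *RPL28* at 29.6 and 35.2 FPKM, and *RPS29* at 44.5 and 46.0 FPKM. Many of these genes have processed pseudogenes, and 83.0% of the 31-base words of *RPS2* also occur in another gene.

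Outside the ribosome, *ACTG1*, which encodes cytoplasmic gamma-actin, was highest at 2756 and 2815 FPKM. *TMSB10*, a thymosin that binds free actin, was at 2718 and 2545 FPKM. *GAPDH*, of glycolysis, was at 2468 and 2453 FPKM, and *FTH1*, the heavy chain of ferritin, at 2054 and 2079 FPKM. *EEF1A1* brings aminoacyl-tRNA to the ribosome and was at 2030 and 1975 FPKM. The remaining genes of the first 30 were *KRT8*, *ACTB* at 1408 and 1456 FPKM, and the cytokine *MIF* at 1402 and 1459 FPKM. Within the first 100 genes, 58 were ribosomal. The 70 genes named as translation factors held 2.77% and 2.75% of the summed FPKM, and the 86 nuclear genes of the respiratory chain held 3.02% in each library. *HMGA1*, an architectural chromatin protein that is high in embryonic and tumour cells and was picked after its value was seen, was at 848 and 934 FPKM. Mitochondrially encoded genes were not analysed here.

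**Figure D2:**
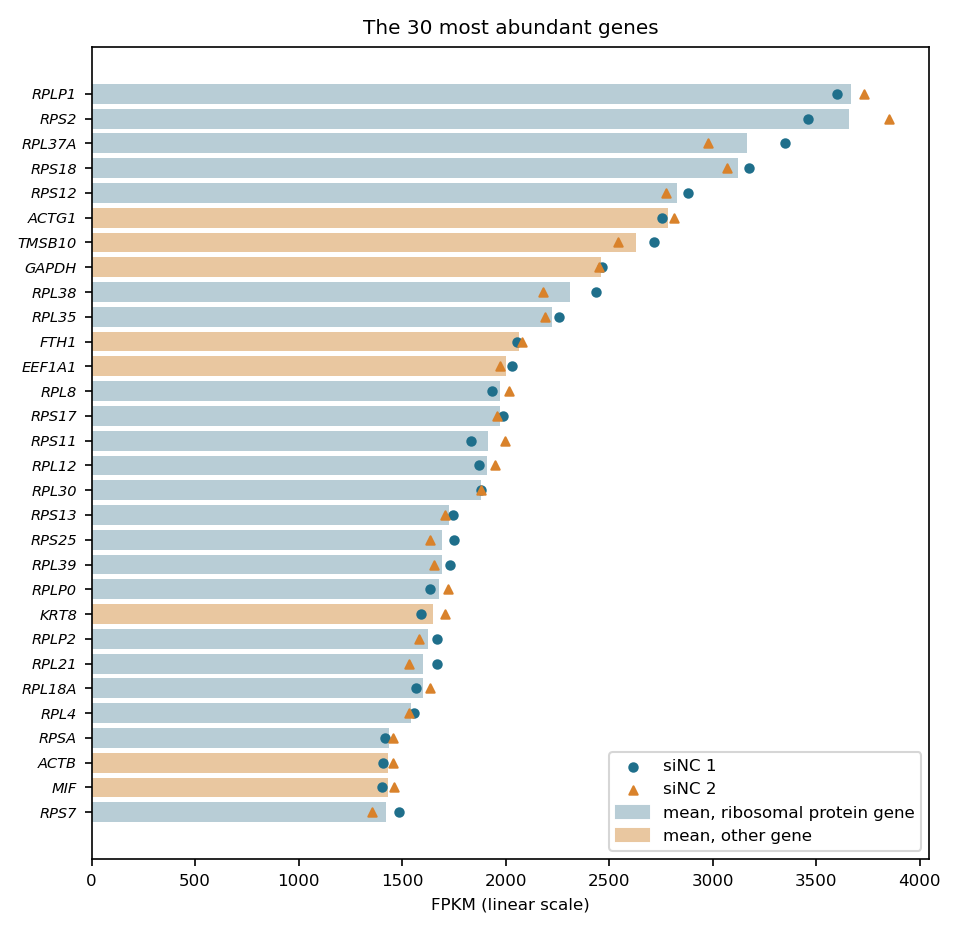
The 30 genes with the highest mean FPKM, on a linear axis. Bars are the mean of siNC 1 (circles) and siNC 2 (triangles), and the 22 ribosomal protein genes are blue. The means run from 3666 FPKM for *RPLP1* to 1420 FPKM for *RPS7*.

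Promoter sequences of 3 of these ribosomal genes are shown because the class shares a start. They are the leading ribosomal genes for which RefSeq and GENCODE give the same start, read from RefSeq on GRCh38 from 50 bases before the start to 10 bases from the start on. The capitals mark the unbroken run of C and T that begins the transcript.
RPLP1 (chr15:69452768-69452827, plus strand): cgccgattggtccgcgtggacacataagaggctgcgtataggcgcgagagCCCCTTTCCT
RPL37A (chr2:216498794-216498853, plus strand): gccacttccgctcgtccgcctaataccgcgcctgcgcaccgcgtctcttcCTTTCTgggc
RPS18 (chr6:33272025-33272084, plus strand): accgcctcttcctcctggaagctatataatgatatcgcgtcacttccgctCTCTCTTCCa
Such a start, a C followed by at least 4 further pyrimidines, is known as the terminal oligopyrimidine motif of mRNAs whose translation follows growth signals. It was found at the canonical start of 60 of 79 ribosomal protein genes, 75.9% (95% Wilson interval 65.5 to 84.0), and at that of 900 of 19280 genes matched to a start, 4.67% (4.38 to 4.97). Among the 542 genes at 100 FPKM or more, which include most of the ribosomal ones, it was 21.8% (18.5 to 25.4).

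The listed epithelial genes were on, and most listed genes of differentiated intestinal cells were not. Of 16 epithelial genes, 16 were on, with a median of 25.1 FPKM, against 50.2% of all genes and a median of 1.02 FPKM over all genes. The epithelial list was chosen with earlier results of these data known. It holds the given markers *KRT8*, *KRT18* and *CDH1*, so its share on is a description only. *KRT19* was at 696 and 718 FPKM. The adhesion molecule *EPCAM* was at 174 and 162 FPKM. The tight junction genes *CLDN7* and *CLDN4* were at 58.4 and 62.4 FPKM and at 40.5 and 45.5 FPKM, while *CLDN3* was at 1.60 and 1.54 FPKM. *ESRP1* and *ESRP2*, the splicing regulators of epithelial cells, were at 21.0 and 21.7 FPKM and at 9.24 and 9.11 FPKM. In the order of this list, 11 of 15 neighbouring pairs were apart, while *PRSS8*, *ELF3*, *CDH1* and *ESRP2* formed a run in which no neighbours were.

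Of 18 enterocyte genes, only *CA2*, a carbonic anhydrase, was on, at 25.03 and 25.05 FPKM. *KRT20*, the keratin of mature colonic cells, was at 0.997 and 0.775 FPKM. Another 10 were listed at 0 in both libraries. Among them were *CA1*, *AQP8*, *GUCA2A*, the fatty acid-binding genes *FABP1* and *FABP2*, sucrase-isomaltase (*SI*), the chloride exchanger *SLC26A3* and *CDX1*. *VIL1*, which encodes the microvillus protein villin, was under 0.05 FPKM. None of 9 goblet cell genes and none of 8 enteroendocrine genes were on, and *MUC2*, the main mucin of the colon, was under 0.05 FPKM. Of 13 genes that mark crypt stem and progenitor cells, 6 were on, near the 50.2% of all genes. *CD44*, an adhesion receptor, was at 27.2 and 26.9 FPKM, *SOX9* at 14.1 and 13.8 FPKM, and the Wnt feedback genes *RNF43*, *AXIN2* and *ZNRF3* had means of 6.66, 4.89 and 3.07 FPKM. The stem cell genes *LGR5*, *ASCL2*, *OLFM4* and *SMOC2* were listed at 0 in both.

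Most genes of other cell types were low. *VIM*, the intermediate filament of mesenchymal cells, was at 0.311 and 0.34 FPKM, and *CDH2* and *ZEB2* were listed at 0. *SNAI1*, a repressor of *CDH1*, was the exception among 9 genes of the mesenchymal shift, at 8.77 and 8.31 FPKM, with *FN1* just over the limit at 1.01 and 1.03 FPKM. Of 9 fibroblast, 8 endothelial, 8 erythroid and 9 muscle genes, 0 were on, and the summed FPKM of each of these lists was at most 1.04 in each library. The embryonic globin gene *HBE1*, which is not in the erythroid list, was at 11.7 and 12.8 FPKM. In the leukocyte list, *CD68*, a lysosomal protein that is not limited to macrophages, was at 3.72 and 3.87 FPKM, with 93.1% of its words also in another gene, and the pan-leukocyte gene *PTPRC* was under 0.05 FPKM. In the neuronal list, *TUBB3*, a beta-tubulin with 94.0% of its words in another gene, was at 25.3 and 29.5 FPKM, and *SYT1*, a calcium sensor of vesicles, was at 4.49 and 4.43 FPKM, while *STMN2*, *GAP43* and *NEFL* were listed at 0. *SFN*, an epithelial adaptor protein, accounted for most of the squamous list at 221 and 223 FPKM. It was 1 of 3 on among 10 squamous genes, the others being the keratins *KRT6A* at 3.81 and 4.44 FPKM and *KRT13* at 3.47 and 4.20 FPKM. *TP63*, the squamous lineage factor, was listed at 0.

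Among 29 transcription factors of endoderm and gut, 13 were on and 9 were listed at 0, near the 50.2% and 26.5% of all genes. *KLF5*, a factor of dividing crypt cells, led with 24.8 and 24.4 FPKM. It was apart from *SOX9* at 14.1 and 13.8 FPKM, which in turn was not apart from *KLF4* at 12.4 and 13.4 FPKM. *ELF3* was at 10.03 and 11.3 FPKM and *HHEX*, the target of the study's knockdown, at 8.60 and 9.06 FPKM, and these 2 were not apart. *HES1*, *CDX2* and *FOXA3* followed, with means of 5.11, 4.16 and 3.69 FPKM. *GATA6* was at 2.31 and 1.75 FPKM and *HNF4A* at 1.44 and 1.09 FPKM. Among those listed at 0 were *CDX1*, *GATA4*, *GATA5*, *PROX1*, *ISX*, *SOX17*, *ASCL2* and *ATOH1*, the last of which directs the secretory fate.

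Of 8 genes listed as the T-cell factor and MYC arm of Wnt signalling, 6 were on. *CTNNB1*, encoding beta-catenin, was at 79.4 and 77.2 FPKM. *MYC* was at 89.1 and 91.0 FPKM. *TCF7L2*, the main T-cell factor of colon, was at 20.1 and 19.1 FPKM, well above *TCF7L1* and *TCF7* at means of 2.31 and 1.57 FPKM, and *LEF1* was listed at 0. The study's other knockdown targets were on as well. *YAP1* was at 20.2 and 19.7 FPKM and *WWTR1*, its paralog, at 6.80 and 6.72 FPKM. *TEAD4* at 20.3 and 21.3 FPKM and *TEAD1* at 18.3 and 19.04 FPKM were not apart, and *TEAD3* and *TEAD2* had means of 7.18 and 3.78 FPKM.

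HOX genes set position along the body axis, and 20 of 39 were on, close to the 50.2% of all genes. The HOXA cluster was carried by *HOXA9* at 35.4 and 32.6 FPKM, *HOXA10* at 22.1 FPKM in both, and *HOXA7* at 14.2 and 14.3 FPKM. In HOXB, *HOXB7* was highest at 35.9 and 36.9 FPKM, and *HOXB13*, of the most caudal position, was at 2.53 and 3.26 FPKM. The HOXC cluster was lower, with *HOXC9* at 5.11 and 4.75 FPKM. In HOXD only *HOXD8* was on, at 2.02 and 2.05 FPKM, and the cluster summed to 2.48 and 2.44 FPKM compared with 89.4 and 86.8 FPKM for HOXA. Of 48 nuclear receptors, 22 were on and 14 were listed at 0, also near the 50.2% and 26.5% of all genes. *NR2F6*, an orphan receptor, led with 76.9 and 77.0 FPKM, ahead of *NR2F2* at 28.0 and 27.3 FPKM. The vitamin D receptor *VDR* was at 4.92 and 4.58 FPKM and *PPARG* at 3.49 and 3.52 FPKM, whereas the glucocorticoid receptor *NR3C1* was at 0.841 and 0.913 FPKM. The estrogen alpha and progesterone receptors, *ESR1* and *PGR*, and the bile acid receptor *NR1H4* were listed at 0.

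**Figure D3:**
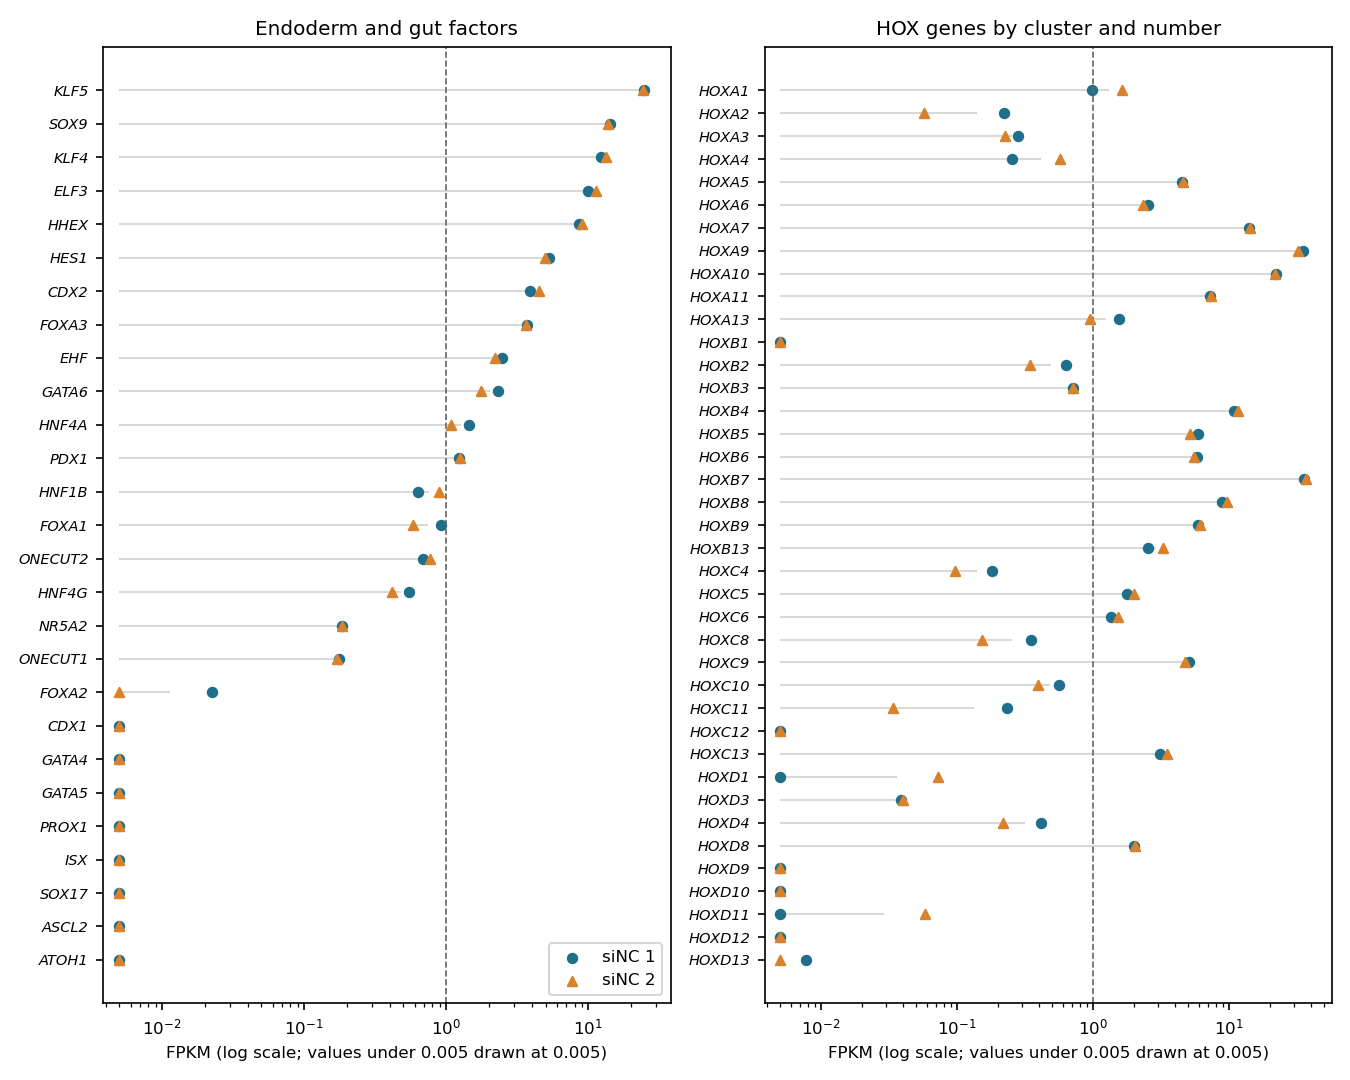
FPKM of 27 of the 29 endoderm and gut transcription factors, ordered by mean (left), and of 39 HOX genes by cluster and number (right), in siNC 1 (circles) and siNC 2 (triangles) on a log axis, with the dashed line at 1 FPKM. Values under 0.005 FPKM, 0 included, are drawn at 0.005. *KLF5* leads on the left, and on the right *HOXB7* and *HOXA9* stand highest and *HOXD8* alone of its cluster passes the line.

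Receptors and their ligands showed which signals the line could in principle receive and send, as far as mRNA goes. Of 184 receptor genes, 89 (48.4%) were on, close to the share of all genes, and 2 were at 100 FPKM or more. Of 225 ligand genes, 50 (22.2%) were on and 94 were listed at 0, yet 6 were at 100 FPKM or more. Among 58 receptor tyrosine kinases, 24 were on. *EPHA2*, an ephrin receptor of epithelium, led with 42.5 and 45.4 FPKM, apart from *MET*, the receptor of hepatocyte growth factor, at 36.3 and 37.5 FPKM, and from the collagen receptor *DDR1* at 26.8 and 27.2 FPKM. *RYK*, *PTK7*, *EPHB4* and *AXL* formed a level group of which no neighbours were apart, with means between 18.9 and 21.3 FPKM. *ERBB2* was at 9.80 and 10.4 FPKM, *EGFR* at 6.39 and 7.25 FPKM and *ERBB3* at 3.41 and 3.11 FPKM, while *ERBB4* was listed at 0. *FGFR4* was the leading fibroblast growth factor receptor at 11.8 and 11.1 FPKM. *ALK*, *ROS1* and *NTRK2* were listed at 0, and *KIT*, *FLT3* and *PDGFRA* were under 0.05 FPKM.

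Among TNF-family and death receptors, 13 of 18 were on. *TNFRSF12A*, the receptor of TWEAK, stood above all listed receptors at 252 and 271 FPKM, and its ligand gene *TNFSF12* was at 2.53 and 4.34 FPKM. The TRAIL death receptors *TNFRSF10B* and *TNFRSF10A* were at 32.6 and 32.3 FPKM and at 19.8 and 19.2 FPKM. The decoy receptors *TNFRSF10D* and *TNFRSF6B*, were at 23.5 and 23.1 FPKM and at 17.6 and 18.5 FPKM, with 90.3% of the words of *TNFRSF6B* in another gene, whereas *FAS* was at 1.80 and 1.34 FPKM. Of 13 TGF-beta family receptors, 9 were on. *TGFBR2* was at 8.23 and 7.73 FPKM and *TGFBR1* at 3.09 and 2.90 FPKM. Cytokine and interferon receptors were on in 17 of 24 cases, led by *IFNGR2* at 16.9 FPKM in both. Of 18 Wnt and Hedgehog receptors 11 were on, led by *FZD6* at 16.3 and 14.99 FPKM. None of 19 chemokine receptors was on, and *CXCR4* was at 0.192 and 0.0224 FPKM. Of the other G protein-coupled receptors, *GPRC5A*, an orphan receptor induced by retinoic acid, was at 99.5 and 107 FPKM, and *F2RL1*, a receptor cut open by trypsin-like proteases, at 90.7 and 89.2 FPKM.

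On the ligand side, *AREG* (amphiregulin) at 224 and 208 FPKM and *EREG* (epiregulin) at 136 and 143 FPKM were above *EGFR*, a receptor of both. Next came *TGFA* at 15.9 and 14.99 FPKM and *HBEGF* at 5.56 and 5.31 FPKM, and each of these 4 was apart from the next. *EGF* itself was under 0.05 FPKM. *KITLG*, the ligand of KIT, was at 104.5 and 105.2 FPKM in a line with *KIT* under 0.05 FPKM. *GAS6*, the ligand of AXL and TYRO3, was at 22.4 and 24.9 FPKM, with *AXL* at 18.9 FPKM in both libraries. *HGF*, the ligand of MET, was listed at 0. Among 22 fibroblast growth factors only *FGF19*, an ileal hormone and ligand of FGFR4, and *FGF2* were on, at means of 6.45 and 1.82 FPKM.

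Among 32 Wnt ligands, R-spondins and inhibitors, 7 were on. *DKK1*, a secreted inhibitor of Wnt signalling, was at 366 and 348 FPKM, and *WNT16* was the highest Wnt gene at 26.1 and 25.4 FPKM. All 5 of *SFRP1*, *SFRP2*, *SFRP4*, *SFRP5* and *WIF1*, further inhibitors, were listed at 0. In the TGF-beta family *BMP4* was at 113 and 108 FPKM, above *GDF15* at 18.2 and 18.3 FPKM and *TGFB1* at 9.21 and 9.65 FPKM. Chemokines were on in 1 of 38 cases, *CXCL16* at 16.3 and 17.5 FPKM, and 26 were listed at 0. *CXCL8* (interleukin 8) was at 0.38 and 0.515 FPKM. Of 40 interleukins, interferons and TNF ligands, 6 were on, led by *TNFSF9* at 22.1 and 23.5 FPKM and *IL18* at 21.5 and 19.8 FPKM. *IL6* was under 0.05 FPKM and *IL1B*, *TNF*, *IFNB1* and *IFNG* were listed at 0. *MDK* (midkine) was at 78.5 and 85.1 FPKM, while its relative *PTN* was listed at 0.

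**Figure D4:**
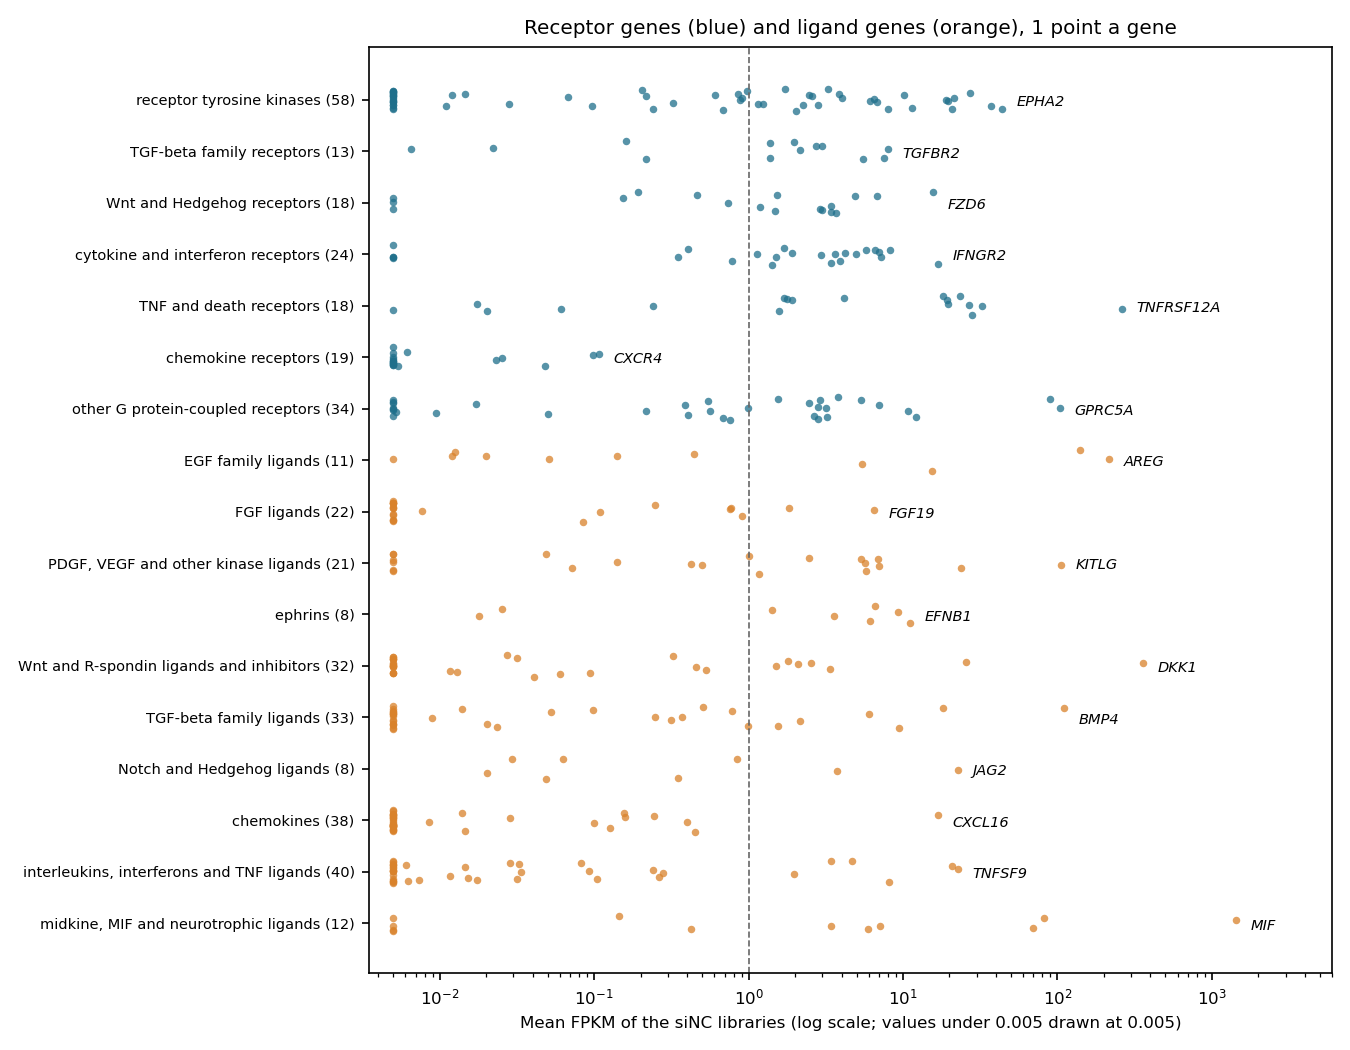
Mean FPKM of siNC 1 and siNC 2 for 184 receptor genes (blue, 7 lists) and 225 ligand genes (orange, 10 lists), 1 point a gene, on a log axis with the dashed line at 1 FPKM. Points are spread vertically within a list for view, values under 0.005 are drawn at 0.005, and the highest gene of each list is named. No chemokine receptor passes the line, and *MIF*, *DKK1* and *TNFRSF12A* lie farthest right.

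Paralog choice was examined in 112 families with 390 members, of which 264 members were on and 61 were listed at 0. One gene held at least 90% of the family's FPKM in 41 families (36.6%). The leader was the same gene in both libraries in 111 families, and in 102 it led by more than the 95th percentile of the library difference in both. In 22 families exactly 1 member was on, and in 42 every member was on. The exception to a shared leader was the class IIa histone deacetylases, where *HDAC7* was at 3.96 and 3.61 FPKM and *HDAC5* at 3.76 and 3.65 FPKM.

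In glycolysis, *PKM* was at 502 and 521 FPKM with *PKLR*, the liver form of pyruvate kinase, listed at 0. *ALDOA* held 95.9% and 96.1% of its family, though 80.1% of its words occur in another gene, and *ENO1* 99.1% of the enolases in each library. *SLC2A1* (GLUT1) was at 184 and 198 FPKM and held 99.2% and 99.4% of the class 1 glucose transporters. Lactate dehydrogenase was shared, with *LDHA* at 589 and 573 FPKM and *LDHB* at 370 and 339 FPKM. *SLC16A3*, which exports lactate, was at 177 and 184 FPKM, above *SLC16A1* at 55.8 and 52.3 FPKM. *HK2* led *HK1*, at 15.4 and 15.1 FPKM against 9.61 and 10.4 FPKM. For the respiratory chain, the common forms *COX4I1*, *COX6A1* and *COX7A2* were at means of 122.7, 479 and 127 FPKM, and their tissue-restricted partners *COX4I2*, *COX6A2* and *COX7A1* were listed at 0. Of the adenine nucleotide translocators, *SLC25A5* was at 386 and 379 FPKM, against *SLC25A4* at 5.55 and 6.49 FPKM and *SLC25A6* at 1.87 and 1.81 FPKM. *SLC25A6* has a copy on the Y chromosome, and sharing with such copies was not counted. Its value is uncertain for that reason.

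In several cell cycle families a single gene held most of the FPKM. *CCND1* (cyclin D1) was at 420 and 441 FPKM and held 95.5% and 95.2% of the D cyclins, with *CCND2* listed at 0. *CDK4* was at 131 and 138 FPKM against *CDK6* at 9.49 and 10.6 FPKM. *CCNA1*, of the germ line, was listed at 0, opposite *CCNA2* at 67.1 and 66.7 FPKM. *CDKN1A* (p21) was at 97.7 and 99.03 FPKM, above its relatives *CDKN1B* at 15.95 and 17.1 FPKM and *CDKN1C* at 3.98 and 2.75 FPKM. Signalling families varied. In some a single gene held most, such as *AKT1* with 83.5% and 83.0% of the AKT family, and in others the leading genes were close. *HRAS* was at 31.4 and 34.7 FPKM and *NRAS* at 29.7 and 28.3 FPKM, not apart. *RAC3* at 84.3 and 89.4 FPKM and *RAC1* at 78.0 and 78.5 FPKM were not apart either. *PIK3CB* led the class I PI3K catalytic subunits at 7.95 and 7.32 FPKM, with *PIK3CA* at 1.59 FPKM in both, and *PIK3R2* held 95.2% and 95.1% of the regulatory subunits. Of the words of *PIK3R2*, 99.1% also occur in another annotated gene, and its value is uncertain for that reason.

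Some families of chromatin enzymes had a preferred member and others did not. *DNMT1* was at 41.4 and 42.4 FPKM, and of the de novo methyltransferases *DNMT3B* was at 7.85 and 8.28 FPKM against 0.498 and 0.424 FPKM for *DNMT3A*. *SMARCA4* was at 14.3 and 15.01 FPKM and *SMARCA2*, the other ATPase of SWI/SNF, at 1.06 and 0.972 FPKM. *BRD2* led the BET family at 64.4 and 64.9 FPKM. *EP300* and *CREBBP* were not apart, at means of 8.54 and 7.40 FPKM. Of the classical cadherins, *CDH3* (P-cadherin) at 18.5 and 19.4 FPKM exceeded *CDH1*. *GATA2* at 5.67 and 5.37 FPKM exceeded *GATA6*, and *FOXA3* exceeded *FOXA1* and *FOXA2*. *ALDH1A3* was at 102 and 99.4 FPKM, and *ALDH1A1*, often used to mark stem-like cells, was under 0.05 FPKM. *EZR* (ezrin) was at 527 and 531 FPKM against *MSN* at 39.3 and 42.7 FPKM. *HSPA1B* was at 63.0 and 65.6 FPKM and *HSPA1A* at 1.67 and 1.41 FPKM, but 74.5% and 76.9% of their words occur in another gene, and the split between them is uncertain.

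**Figure D5:**
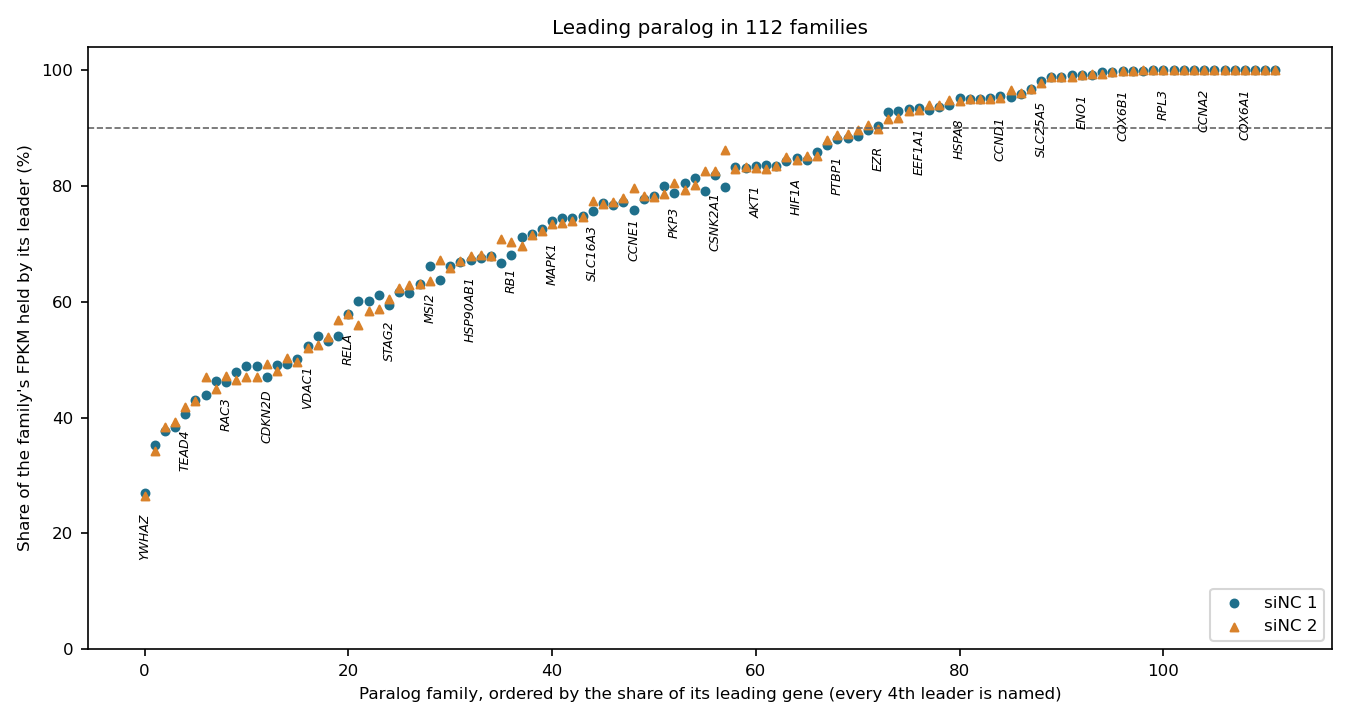
The share of a family's summed FPKM held by its leading gene, in siNC 1 (circles) and siNC 2 (triangles), for 112 paralog families ordered by that share, with the dashed line at 90%. The shares run from 26.9% and 26.4% for *YWHAZ* to 100%, 41 families lie above the line by their mean, and shares near 100% leave little room for the libraries to differ.

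In several large families few or no genes were on. Of 400 olfactory receptor genes, 388 were listed at 0 and 3 were on. Of 93 keratin-associated protein genes, 86 were listed at 0, and *KRTAP2-3* alone was on, at 12.2 and 11.2 FPKM. All 40 beta defensins were listed at 0, and none of 24 bitter taste receptors and 18 late cornified envelope genes was on. Of 40 voltage-gated potassium channels 5 were on, and of 53 clustered protocadherins 1. Keratins were on in 12 of 55 cases, and after *KRT8*, *KRT18* and *KRT19* the next was *KRT10* at 7.77 and 7.07 FPKM. At the other extreme, all 78 mitochondrial ribosomal proteins and all 33 aminoacyl-tRNA synthetases were on. Replication-dependent histone genes, whose mRNAs lack a poly(A) tail, were on in 9 of 70 cases.

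Level classes differed in their promoters, taken as 250 bases before to 50 bases after the canonical GENCODE start, for 96.3% of genes. The CpG ratio, the number of CG pairs over that expected from the C and G content, had a median of 0.33 in genes listed at 0, 0.675 in those above 0 and under 1 FPKM, 0.857 from 1 to under 10 FPKM, 0.894 from 10 to under 100 FPKM, and 0.913 at 100 FPKM or more. A ratio of 0.6 or more was found in 30.1% of genes listed at 0 and in 95.9% of those at 100 FPKM or more. The letters TATAAA, on the coding strand between 40 and 20 bases before the start, were in 8.09% (95% Wilson interval 7.35 to 8.89) of promoters of genes listed at 0, in 4.63% (4.05 to 5.29) of those above 0 and under 1 FPKM, in 1.18% (0.931 to 1.502) of those from 1 to under 10 FPKM, in 1.42% (1.09 to 1.84) from 10 to under 100 FPKM, and in 7.01% (5.15 to 9.48) at 100 FPKM or more, against 3.92% of all. The letters GGGCGG on either strand were in 33.6% of promoters of genes listed at 0 and in 77.7% of those from 1 to under 10 FPKM. For CCAAT on either strand the shares were 36.9% in genes listed at 0, 34.9% from 1 to under 10 FPKM and 43.5% at 100 FPKM or more. The 3 leading nonribosomal genes with TATAAA and the same start in RefSeq are shown as examples of the upper end, with TATAAA in capitals.
EEF2 (chr19:3985454-3985513, minus strand): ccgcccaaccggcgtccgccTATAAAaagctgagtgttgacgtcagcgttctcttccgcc
TXN (chr9:110256498-110256557, minus strand): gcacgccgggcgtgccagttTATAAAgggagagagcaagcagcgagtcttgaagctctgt
PPIA (chr7:44796631-44796690, plus strand): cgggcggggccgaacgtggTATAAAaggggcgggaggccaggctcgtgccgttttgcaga
*EEF2*, which moves the ribosome along mRNA, was at 639 and 679 FPKM. *TXN*, a redox protein, was at 524 and 513 FPKM, and *PPIA*, which encodes cyclophilin A, was at 463 and 442 FPKM. A match of letters is a description of the promoter and does not show that a factor bound there.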

How the data were processed

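RNA was extracted with Trizol and sequenced on an Illumina HiSeq by the authors, who deposited 1 FPKM value per gene and library. Per the labels, their processing notes name Trimmomatic 0.36, HISAT2 2.0.5, Cufflinks 2.2.1 and HTSeq 0.9.1, with no role stated. The genome build and annotation of the RNA-seq are not given in the sources used here. Each library had 20030 rows with 20028 distinct names, and 27 rows were named by a date, as when a spreadsheet converts a symbol. These were kept and not renamed. FPKM divides by the total, so a few abundant genes lower the values of all others, and tools of this kind can divide reads among similar copies.

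The siNC libraries were grouped by their labels. The mean of their FPKM, counts of genes at a limit of 1 FPKM, and log2 differences with a pseudocount of 1 were computed with Python 3.11.15, numpy 2.4.6, pandas 2.3.3 and scipy 1.17.1, and drawn with matplotlib 3.10.9. No test was run, since there was 1 group of only 2 libraries. Genes were named when they were among the 30 highest means, among the 10 largest differences between the libraries, or in a gene list. The members and lists were chosen with earlier results of these data known, and the pyrimidine start, the β-globin region and the families defined by their symbols (such as keratins and olfactory receptors) were added after the files were opened. *HMGA1*, *KRT10*, *KRTAP2-3*, *MAGEB2* and the genes of printed promoters outside the rule were also picked then. Symbols were matched to GENCODE 44 on GRCh38, directly or by a RefSeq synonym, for 19281 rows (96.3%). Words of 31 bases were compared between canonical transcripts, leaving out the Y copies of genes that the X and Y chromosomes share. RefSeq promoter entries matched 14994 rows by symbol. The code that counts differing genes was also run on simulated data, and its outcome there is not given here. Some genes are not reported here by name, though their lists count them. Depth is unknown, and the Wilson intervals cover counting error only. Alternatives were other limits, pseudocounts, filters, shares and windows, and each library alone.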

Additional observations from a re-analysis of the deposited data

How the results depend on the processing

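The count of on genes stayed within 1.5 times of 10051 under each alternative, from 8833 at 2 FPKM to 11358 at 1 TPM, and was 10037 and 10059 in each library alone. Genes listed at 0 ranged from 3754 (0 in all 8 libraries of the series) to 7581 (mean under 0.1 FPKM), with 5795 and 5873 in the libraries alone. The 50 most abundant genes held 25.3% of the summed FPKM, and 17.9% in the alternative planned without mitochondrially encoded and ribosomal protein genes, which removed ribosomal protein genes only, with 25.2% and 25.4% in the libraries alone. Pearson's r of 0.997 was 0.996 with a pseudocount of 0.1, 0.995 with 0.01, 0.999 with no filter and 0.997 from 10 FPKM up, and Spearman's rho was 0.996. The count of genes over 2-fold apart was the least stable. It was 5 with a pseudocount of 1, 13 with 0.1, 16 with none, 9 with no filter, 1 from 10 FPKM up, and 5 with the libraries scaled to the same median ratio. Families with a gene at 90% were 41, with 58 at 80%, 31 at 95%, and 40 in each library alone. Leaders past the 99th percentile were 100 of 112. Receptor and ligand genes that were on numbered 139, with 112 to 160 at other limits and 139 and 142 in the libraries alone. With TATAAA sought over 100 bases, the share was 4.77% of all promoters, 10.5% for genes listed at 0 and 5.44% for those above 0 and under 1 FPKM, which were 3.92%, 8.09% and 4.63% in the shorter window, and the same order of classes held. The agreement of the libraries could not be recomputed without a library, as it needs both. No paired analysis was possible because only 1 group was used and no test was run.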

Other observations

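Of 21 genes listed for their part in colorectal cancer, 20 had a mean of at least 1 FPKM, against 50.2% of all genes, and the exception was *MGMT*, a DNA repair methyltransferase, at 0.869 and 0.856 FPKM. *SMAD4* was at 7.40 and 7.59 FPKM and *APC* at 2.18 and 2.25 FPKM. In mismatch repair, *MSH6* was at 28.3 and 27.1 FPKM, whereas *MSH3* was at 0.78 and 0.563 FPKM. Among 7 genes of the carcinoembryonic antigen family, 0 were on, and *CEACAM5*, which encodes the clinical antigen, was under 0.05 FPKM.

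Of 19 genes of antigen presentation, 8 were on, against 50.2% of all genes, and all 8 were of the class I pathway. *B2M* was at 151 and 142 FPKM, *HLA-B* and *HLA-C* had means of 55.4 and 124 FPKM, and *HLA-G* and the class II activator *CIITA* were listed at 0. The class I gene *HLA-F* and the class I activator *NLRC5* were under the limit, at 0.684 and 0.552 FPKM and at 0.538 and 0.445 FPKM. The immunoproteasome gene *PSMB8* was at 0.111 and 0.0561 FPKM opposite its constitutive partner *PSMB5* at 167 and 179 FPKM, while *PSMB10* was at 20.4 and 23.9 FPKM. Of the targets and enzymes of colorectal cancer drugs, *TYMS*, the target of fluorouracil, was at 146 and 139 FPKM and *TOP1*, the target of irinotecan, at 59.6 and 60.01 FPKM. *DPYD*, which breaks down fluorouracil, was under 0.05 FPKM, and *UGT1A1*, which clears the active form of irinotecan and has 62.3% of its words in another gene, was listed at 0. Of 14 cancer-testis genes 3 were on, with *MAGEA3* at 48.9 and 52.6 FPKM and *PRAME* at 7.22 and 6.66 FPKM. *MAGEB2*, outside that list, was at 100.4 and 98.6 FPKM, and *MAGEA3* shares 71.6% of its 31-base words with another gene.

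The 3 olfactory receptor genes that were on out of 400 lie together beside the β-globin cluster on chromosome 11, in GENCODE coordinates on GRCh38. They were *OR51B4* (5301014 to 5301946) at 4.18 and 5.24 FPKM, *OR51B5* (5303444 to 5505652) at 9.70 and 8.53 FPKM and *OR51B2* (5323359 to 5324297) at 1.296 and 1.194 FPKM. In the same span, embryonic ε-globin *HBE1* (5268345 to 5505652) was at 11.7 and 12.8 FPKM and *HBG2* (5253188 to 5505605) at 0.691 and 0.783 FPKM, with 82.6% of its words in another gene. *HBB*, *HBD* and *HBG1* were listed at 0. All of these genes are on the minus strand, and the annotated spans of *HBE1*, *HBG2* and *OR51B5* overlap. *OR51B4* and *OR51B2* lie inside the spans of *HBE1* and *HBG2*, and *OR51B2* also inside that of *OR51B5*. The region was picked after its values were seen. *OR51B6*, on the plus strand inside it (5351508 to 5352446), was 1 of 15 listed at 0 among the 19 olfactory receptor genes between 5 and 5.7 Mb. Reads of overlapping transcripts can be divided among them, and its part in these values was not tested.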
